A study of Homo sapiens with 12 samples.

Results

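BCL6 and the chromatin upstream of it, toward LPP, are described here by their H3K27ac peaks in SUDHL4, an established diffuse large B-cell lymphoma line. The members are all deposited peaks on chromosome 3 between 187.4 and 188.0 Mb (build hg19). Peaks of any clone that shared a base were joined, which gave 56 regions of 48876 in the whole series. BCL6 was taken to lie at 187.439 to 187.464 Mb on the minus strand, so upstream means toward higher coordinates. These gene bounds came with the definition of the interval and were not checked against an hg19 annotation. The hg19 position of LPP was not checked either, so blocks at the far end of the interval may lie at or inside LPP.

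The series holds 12 ChIP-seq samples, 6 immunoprecipitated libraries and their 6 inputs, for H3K27ac, an acetyl mark on histone H3 that is found at enhancers and promoters in use. Every group has 2 clones, and each is a single clone obtained by limiting dilution after CRISPR/Cas9 editing and kept as a stable line. The control clones (WT) were edited at PPP1R12C and are wild type for CREBBP. The CREBBP-KO clones were made with guides against exon 15 (clone 1) and exon 20 (clone 2), and the EP300-KO clones with guides against exon 17 (clone 1) and exon 24 (clone 2). For CREBBP-KO clone 1, the sample name and the protocol disagree on the exon, and the protocol's number is given here. Because all groups are edited clones, differences between clones and effects of a genotype cannot be told apart beyond what 2 clones show, and the labels do not say that clones of 1 genotype were handled on separate days. The lists carry no gene names, so markers of the labelled cell type were not checked.

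BCL6 is a zinc-finger transcriptional repressor that germinal-centre B cells need, and it is a frequent target of translocations in diffuse large B-cell lymphoma. CREBBP and EP300 are related acetyltransferases that place the H3K27ac mark at enhancers and promoters. Long stretches of closely spaced H3K27ac upstream of BCL6 are known from germinal-centre B cells and lymphoma lines, and the wide gene-poor space toward LPP, which encodes a focal-adhesion protein, holds them.

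RefSeq lists 2 BCL6 promoters (build GRCh38.p14, minus strand, 250 bases before to 50 after a start). They are shown because peaks at the gene start were present in all 6 clones, and the distal width is set against the peaks of the promoter and first intron below. BCL6 is known to bind its own promoter, and its motif resembles that of STAT factors. The capitals mark matches to TTCNNNGAA, the STAT-type palindrome, which reads the same on both strands. Promoter 1 lies at chr3:187745419-187745718, and promoter 2, at chr3:187736452-187736751, starts 8967 bases further downstream. These GRCh38.p14 positions differ from the hg19 positions of the peaks and cannot be set against them directly. If promoter 1 is at the assumed gene start, promoter 2 lies further downstream than the peaks at the gene start reached.

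BCL6 promoter 1: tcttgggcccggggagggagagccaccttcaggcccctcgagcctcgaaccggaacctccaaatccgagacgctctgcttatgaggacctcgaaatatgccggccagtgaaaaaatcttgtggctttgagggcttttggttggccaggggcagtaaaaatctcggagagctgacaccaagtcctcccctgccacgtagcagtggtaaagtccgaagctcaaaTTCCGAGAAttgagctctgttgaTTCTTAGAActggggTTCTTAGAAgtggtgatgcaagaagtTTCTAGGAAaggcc

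BCL6 promoter 2: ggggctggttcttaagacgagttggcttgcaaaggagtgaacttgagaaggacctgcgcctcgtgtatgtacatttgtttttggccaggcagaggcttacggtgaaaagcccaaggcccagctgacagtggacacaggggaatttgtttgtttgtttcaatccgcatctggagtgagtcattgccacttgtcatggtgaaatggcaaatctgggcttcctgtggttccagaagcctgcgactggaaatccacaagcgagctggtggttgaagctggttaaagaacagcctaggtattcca

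Promoter 1 held 4 matches, at -28, -5, 10 and 36 bases from its start, and promoter 2 held 0. The last of the 4 reads TTCTAGGAA on the printed strand and TTCCTAGAA on the other, a BCL6-type core that is 1 form of TTCNNNGAA. Of 35116 RefSeq promoters of the same length, 7.66% held at least 1 match and 0.0484% held at least 3. TTCCTAGAA was in 0.373% of them. The E-box CACGTG and the MEF2 and NF-kB cores, searched on both strands, had 0 matches in either BCL6 promoter, beside 7.26%, 0.142% and 0.191% of all promoters, which says only that these letters are not in these windows. The GC content was 53.0% in promoter 1 and 50.3% in promoter 2, beside a median of 58.7% over all promoters. A match is a string of letters and not a measured binding site. In RefSeq's gene order on GRCh38.p14, 0 protein-coding genes and 7 long non-coding RNA genes start between BCL6 and LPP. The long non-coding RNA genes BCL6-AS1 and LOC100131635 overlap BCL6.

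The peaks of the interval lay at the gene start and in blocks far upstream of it. No clone had a peak from 187.4 Mb up to the region that begins at 187458021, which takes in the gene body beyond its 5′ part. After the peaks at the gene start, which ended at 187469020, a gap of 66.1 kb followed before the first distal region. Of the 56 regions, 3 lay at the gene start and 53 in the distal stretch from 187.5 to 188.0 Mb, and 20 (35.7%) were present in all 6 clones, against 44.8% of regions over the genome.

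**Figure D1:**
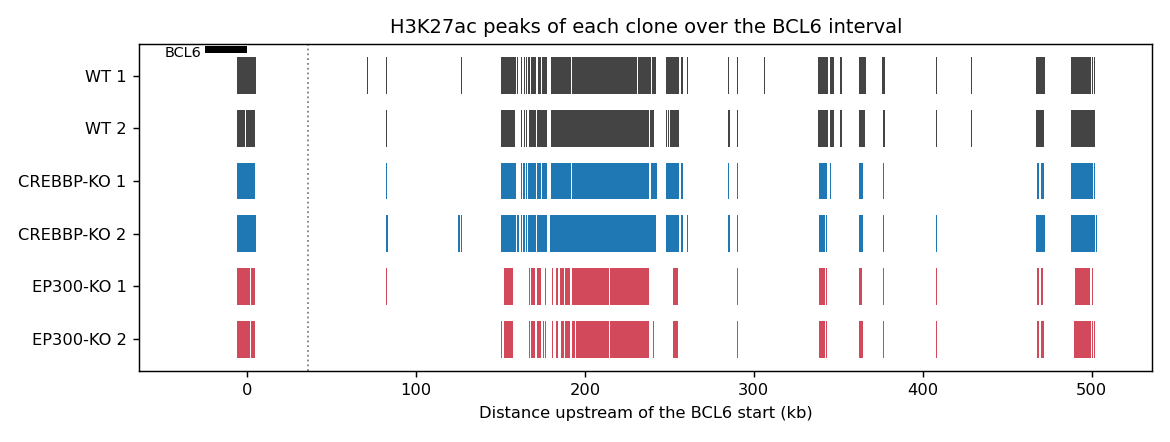
Peaks of each clone over the interval, 1 track per clone, against the distance upstream of the BCL6 start in kb. All 6 clones show the peaks at the gene start, the wide block 150 to 261 kb upstream and further blocks beyond it, and in the EP300-KO tracks the outer parts of the blocks are thinner.

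Peaks separated by gaps of up to about 12 kb, a distance customary for super-enhancers, were also stitched into blocks. Testing these blocks was chosen after their peaks had been seen. The main block, at 187614059 to 187724965, had 19 regions over 110.9 kb. It was the widest stitched domain of the whole genome by covered bases in each of the 6 clones, among 12687 to 14568 domains per clone. The longest single peak of every list lay in it as well. That peak was 24.9 kb and 46.7 kb long in the WT clones, 46.0 kb and 56.5 kb in the CREBBP-KO clones, and 23.3 kb and 23.4 kb in the EP300-KO clones. The longest peak elsewhere ran from 14.5 to 22.5 kb over the 6 lists. How a peak is broken up depends on the caller, so lengths of single peaks are given as a description of each list.

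Across the whole interval, the WT clones had 138 kb (clone 1) and 132 kb (clone 2) under peaks. The CREBBP-KO clones had 129 and 138 kb, and the EP300-KO clones had 97.9 and 103 kb. Both EP300-KO clones were below all others, and the CREBBP-KO clones overlapped the WT clones. The mean of EP300-KO was 74.5% of WT in the interval, beside 80.3% over the whole genome, and that of CREBBP-KO was 98.9%, beside 97.2%. The EP300-KO lists were also the shortest of the series (35054 and 35841 peaks, against 36096 to 46940 in the other clones). Sequencing depth and chromatin immunoprecipitation yield per library are unknown, and their part in these widths was not tested. All widths are lengths of called peaks and not heights of the signal.

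At the promoter and first intron, taken as 2 kb upstream to 10 kb downstream of the gene start, the peaks had nearly the same width in every clone. They covered 7.57 and 7.52 kb in the WT clones, 7.45 and 7.58 kb in the CREBBP-KO clones, and 7.32 and 7.31 kb in the EP300-KO clones. The EP300-KO mean was 96.9% of WT with no overlap, and the exact two-sided permutation test gave p = 0.333, the smallest value that 2 clones against 2 allow. The CREBBP-KO clones lay on both sides of the WT clones (p = 1, exact permutation test). The near upstream stretch, from there to 187.5 Mb, covered 3.01 and 2.81 kb in WT, 2.81 and 3.02 in CREBBP-KO, and 2.57 and 2.59 in EP300-KO, again with EP300-KO lowest.

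The 3 regions at the gene start were present in all 6 clones. The region in the gene, 187458021 to 187462770, covered 4682 and 4715 bases in WT, 4679 and 4731 in CREBBP-KO, and 4620 and 4638 in EP300-KO. The region that spans the gene start, 187462987 to 187464321, covered 1327 and 1240 bases in WT, 1240 and 1276 in CREBBP-KO, and 1258 and 1243 in EP300-KO. Its EP300-KO values lay between the WT values. Just upstream, 187464433 to 187469020, the WT clones had 4571 and 4376 bases, the CREBBP-KO clones 4337 and 4588, against 4009 and 4022 in EP300-KO. None of the 3 passed the test in any comparison (limma, Benjamini-Hochberg adjusted over all tested regions). Their log2 differences between EP300-KO and WT, 0.18, 0.17 and 0.05 after centring on each clone's median, became -0.02, -0.03 and -0.15 without it, since the median region itself differed by -0.20 between EP300-KO and WT.

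The distal stretch carried nearly all of the difference in the interval. It covered 127 and 121 kb in the WT clones, 118 and 127 kb in the CREBBP-KO clones, and 88.0 and 92.9 kb in the EP300-KO clones. The EP300-KO mean differed from WT by -33.7 kb and came to 72.8% of it, with both clones below all others (p = 0.333, exact two-sided permutation test, the smallest possible). The CREBBP-KO mean differed by -1.44 kb with overlapping clones (p = 1, exact permutation test).

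Set against the promoter and first intron of the same clone, which allows for a factor common to all widths of a list, the distal width was 16.8 and 16.1 times as large in the WT clones. In the CREBBP-KO clones it was 15.9 and 16.8 times, and in the EP300-KO clones 12.03 and 12.7 times. The log2 of this ratio differed from WT by -0.41 in EP300-KO, without overlap, and by -0.01 in CREBBP-KO, with overlap. A width that already spans a whole block can grow or shrink only at its edges, and the ratio does not correct for that.

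Of the bases under peaks in both WT clones, the share still under a peak in EP300-KO differed by place within the interval. At the promoter and first intron it was 97.6% and 97.7%, and in the distal stretch 74.5% and 78.4%. Over the whole genome the same measure gave 78.9% and 81.1% in the EP300-KO clones. In the CREBBP-KO clones the promoter share was 99.1% and 100%, the distal share 93.5% and 96.2%, and the genome share 86.3% and 95.3%. The CREBBP-KO clones thus had more of the WT bases in this distal stretch than over the genome, and the EP300-KO clones fewer.

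**Figure D2:**
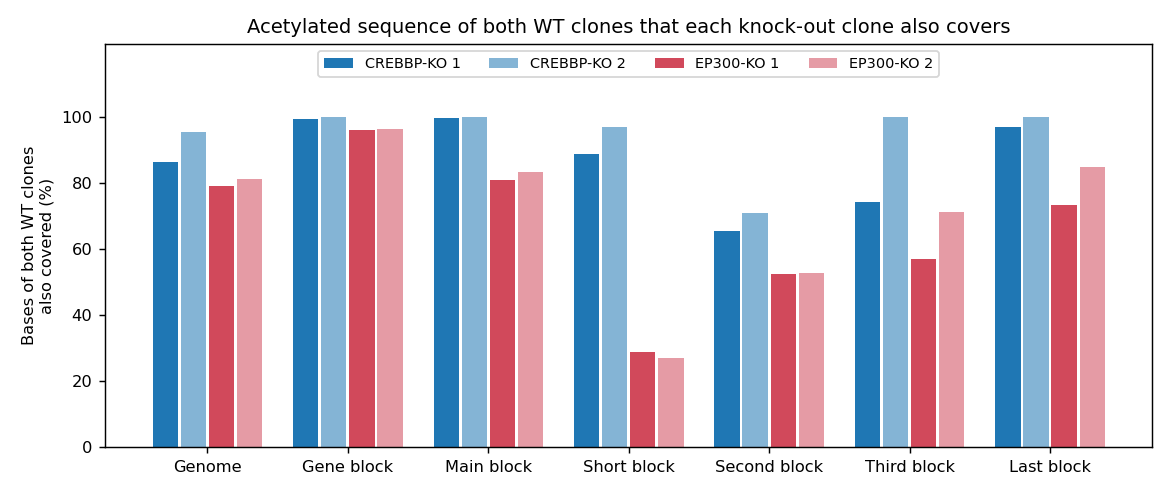
Percent of the bases covered in both WT clones that are also under a peak in each knock-out clone, for the genome and for 6 blocks of the interval, 1 bar per clone. Among the parts drawn, the short block is the lowest in EP300-KO (28.8% and 26.96%), and the second block is low in both knock-outs.

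Covered length was then tested region by region in a fit over the whole genome. In the comparison of EP300-KO with WT, 13 of the 32 tested regions fell and 0 rose, where 6.13% of all tested regions fell and 1.21% rose (limma, Benjamini-Hochberg adjusted p at most 0.05). The median log2 difference of the 32 was -0.71, beside 0.06 over all tested regions. All 13 lay in the distal stretch, 8 in the main block, 2 in the short block and 3 in the second block. Of the 13, 11 had fewer than 500 bases in both EP300-KO clones and so entered the test only through WT and CREBBP-KO clones, which makes a lower EP300-KO value likelier among them. With no filter on width, 13 regions of the interval fell, but not the same 13. The region at 187644078 to 187646113 lost its call there (limma, adjusted p = 0.059). The equal count thus does not show that the calls were independent of the filter. Left out of the fit were 24 regions with fewer than 500 covered bases in all or all but 1 of the clones. The count was 3 without WT clone 1, 6 without WT clone 2, 7 and 8 without CREBBP-KO clone 1 or 2, and 7 and 8 without EP300-KO clone 1 or 2.

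In the comparison of CREBBP-KO with WT, 0 of the 32 regions fell and 0 rose, where 0.0101% and 0% of all tested regions did (limma). At an unadjusted limma p under 0.05, 4 were lower and 1 was higher, beside 928 and 825 of the 19860 regions tested over the genome. The median log2 difference was 0.07, beside 0.02 over all tested regions. The EP300-KO and CREBBP-KO comparisons share the WT clones.

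**Figure D3:**
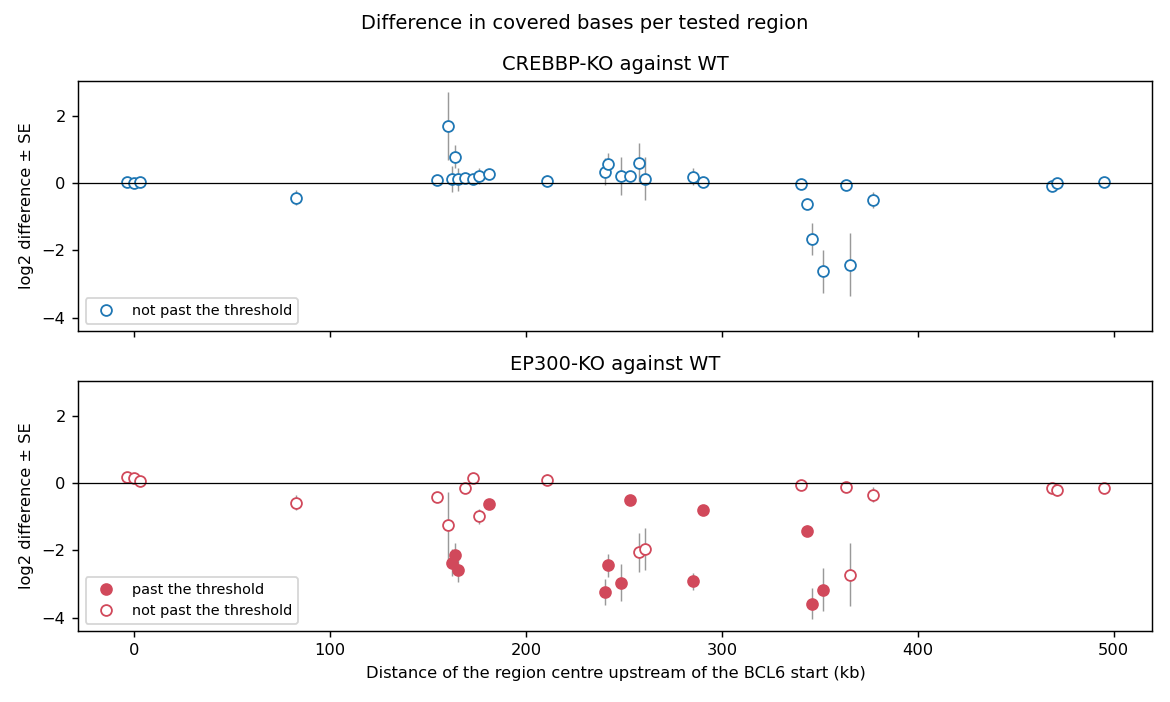
Log2 difference in covered bases of each tested region against its distance upstream of the BCL6 start in kb, for each knock-out against WT, with standard errors and with called regions marked. The EP300-KO differences are negative at most distal regions, and the 3 regions at the gene start lie near 0.

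Within the main block, the widest region was nearly as wide in EP300-KO as in WT and the flanking regions were not. This region, 187646316 to 187702840, covered 54895 and 55732 bases in WT, 55582 and 56525 in CREBBP-KO, and 51494 and 51714 in EP300-KO. The EP300-KO mean was 93.3% of WT, and every list gave the region the highest score it holds, 170. The other 18 regions of the block together covered 32.7 and 30.0 kb in WT, 34.3 and 37.6 in CREBBP-KO, and 15.8 and 17.8 kb in EP300-KO. That is 53.6% of WT in EP300-KO and 114% in CREBBP-KO, and no EP300-KO clone reached any other clone.

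The whole block covered 87.6 and 85.8 kb in WT, 89.9 and 94.1 in CREBBP-KO, and 67.3 and 69.6 kb in EP300-KO. Both EP300-KO clones were lowest and both CREBBP-KO clones highest. Neither difference from WT passed the test (EP300-KO -0.15 on the log2 scale, adjusted p = 0.33; CREBBP-KO 0.16, adjusted p = 0.51; limma). These log2 values are relative to the median domain of each clone, which differed by -0.19 between EP300-KO and WT. With 1000 bases added before the log in place of 100, the EP300-KO difference passed (limma, adjusted p = 0.039).

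**Figure D4:**
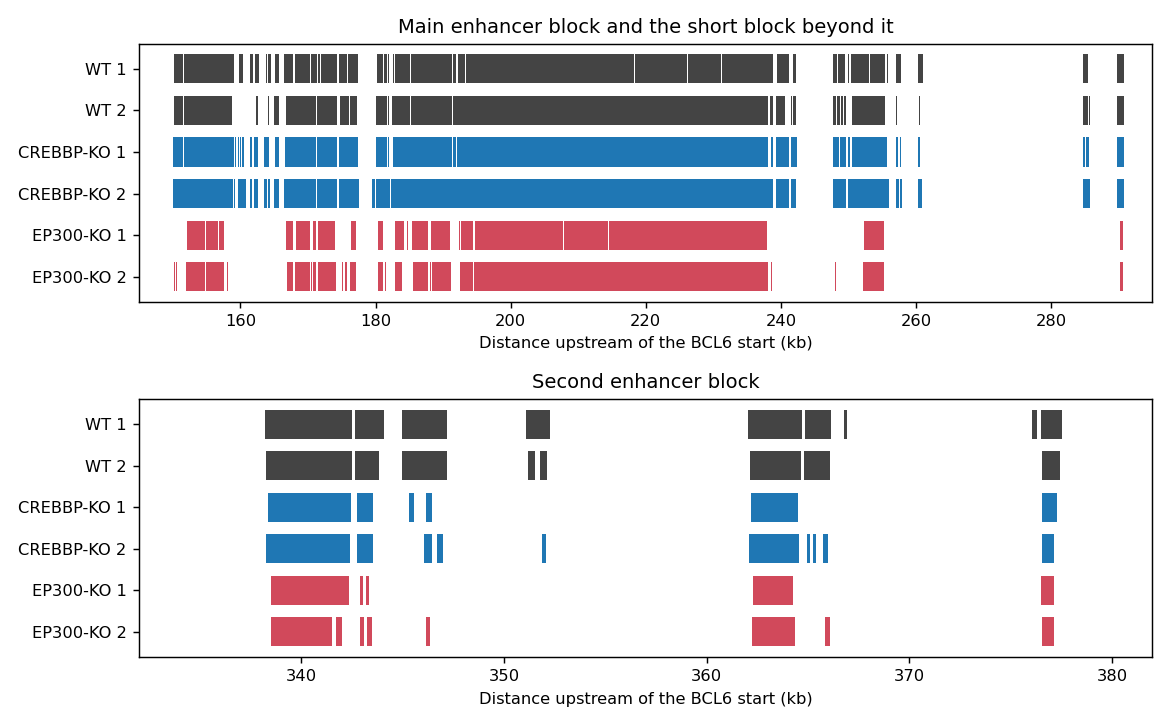
Peaks of each clone over the main block and the short block beyond it (upper panel) and over the second block (lower panel), against kb upstream of the BCL6 start, 1 track per clone. Short regions on both sides of the widest region have few or no peaks in the EP300-KO tracks, and in the second block both knock-outs lack peaks that the WT tracks show.

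The regions that fell in the main block stood on both flanks of the widest region. On the side nearer the gene, 3 neighbouring short regions had peaks in all 4 WT and CREBBP-KO clones and 0 bases in both EP300-KO clones. At 187626039 to 187626753 the WT clones covered 651 and 365 bases and the CREBBP-KO clones 541 and 512. At 187627504 to 187628457 these were 526 and 307 bases in WT and 713 and 790 in CREBBP-KO, and at 187628964 to 187629720 they were 489 and 719 in WT and 575 and 691 in CREBBP-KO. The log2 differences of EP300-KO from WT were -2.36, -2.13 and -2.59 (limma, adjusted p = 0.031, 0.030 and 0.017). With EP300-KO at 0, these sizes depend on the 100 bases added before the log and set no bound. By deposited score, these were not high peaks of the WT lists. At the first region the best peak scored above 15.6% and 7.24% of the peaks of WT clones 1 and 2. At the next this was 52.0% and 30.5%, and at the last 42.2% and 32.7%.

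Each of those calls was lost when some single clone was left out. The adjusted p then reached 0.098, 0.090 and 0.055 (limma). WT clone 1, CREBBP-KO clone 1 and each EP300-KO clone ended the first call. The same clones and CREBBP-KO clone 2 ended the next, and WT clone 2 ended the last. Quantile normalization ended all 3 calls, at log2 differences of -0.99, -0.68 and -1.39 (limma, adjusted p = 0.36, 0.37 and 0.12). When every list was cut to the same number of peaks, the first region turned to 0.19 (adjusted p = 0.88) and the next lost its call (-1.70, adjusted p = 0.076).

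Directly beyond the widest region, away from the gene, 4 regions fell. At 187703251 to 187705265 the WT clones covered 1768 and 1370 bases, the CREBBP-KO clones 1887 and 2015, against 0 and 131 in EP300-KO. At 187705493 to 187706364 the values were 445 and 620 in WT, 872 and 734 in CREBBP-KO, and 0 in both EP300-KO clones. At 187711692 to 187713674 they were 1641 and 1518 in WT, 1665 and 1932 in CREBBP-KO, and 0 and 251 in EP300-KO. These 3 were chosen by their EP300-KO calls. With fewer than 500 bases in both EP300-KO clones, they entered the test only through the other clones, so low EP300-KO values were favoured by the choice. The log2 differences of EP300-KO from WT were -3.24, -2.45 and -2.96 (limma, adjusted p = 0.015, 0.020 and 0.041). By deposited score, their best peaks scored above 60.3%, 37.6% and 58.6% of the peaks of WT clone 1. In WT clone 2 this was 55.7%, 32.7% and 38.3%. The fourth region ranked high, above 99.7% and 99.8% of the peaks of WT clones 1 and 2.

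The fourth, 187713981 to 187719952, was a wider region that narrowed and was not lost. It covered 5132 and 4887 bases in WT, 5477 and 5953 in CREBBP-KO, and 2944 and 3156 in EP300-KO. The log2 difference of EP300-KO from WT was -0.50 (limma, SE 0.08, adjusted p = 0.029). Among these 4 regions, leaving out a single clone raised the adjusted p as far as 0.055, 0.063, 0.12 and 0.19 (limma). WT clone 1 and the CREBBP-KO clones ended the first call, WT clone 2 the next, all WT and CREBBP-KO clones the one after, and all WT and EP300-KO clones the last. Quantile normalization ended the call at 187705493 (adjusted p = 0.21), and the upper 50% of each list by score that at 187711692 (adjusted p = 0.53).

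Between the flanks and the widest region, 187644078 to 187646113 covered 1474 and 1677 bases in WT, 1727 and 2036 in CREBBP-KO, and 773 and 910 in EP300-KO. It fell by 0.63 on the log2 scale in EP300-KO (limma, adjusted p = 0.046), a call that ended without any 1 of the 6 clones (adjusted p = 0.059 to 0.20). At the gene-side edge of the block, 187614059 to 187623053, WT covered 8701 and 8390 bases, CREBBP-KO 8781 and 8874, and EP300-KO 5206 and 5838. The EP300-KO difference from WT, -0.42, did not pass (limma, adjusted p = 0.085). Without centring it was past the threshold, at an adjusted p of 0.016.

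Not all regions of the main block were narrower in EP300-KO. At 187635390 to 187638358 the WT clones covered 2602 and 2936 bases, the CREBBP-KO clones 2848 and 2969, against 2650 and 2656 in EP300-KO. Both EP300-KO values lay between the WT values. Its log2 difference was 0.14 (limma, adjusted p = 0.44). Another of the widest regions, 187630441 to 187635265, covered 4377 and 4483 bases in WT, 4708 and 4806 in CREBBP-KO, and 3446 and 3538 in EP300-KO. The EP300-KO difference from WT there, -0.13, did not pass (limma, adjusted p = 0.42). Without centring it passed (limma, adjusted p = 0.024).

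**Figure D5:**
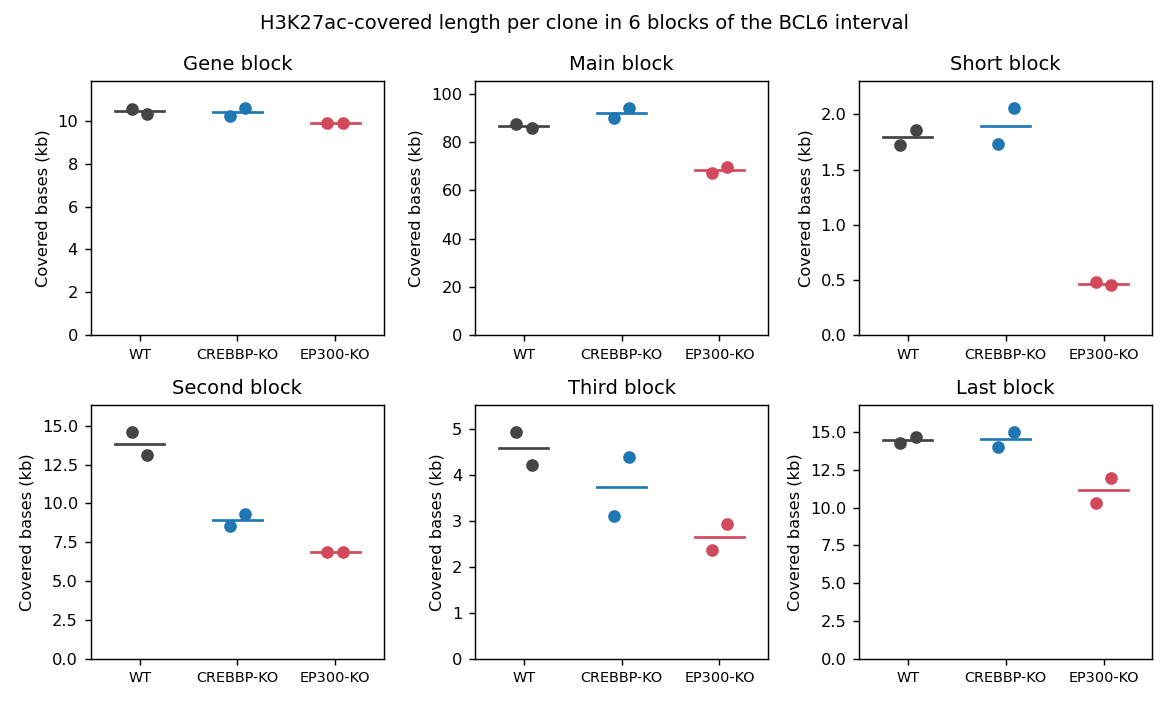
Covered kb of 6 blocks of the interval, 1 panel per block, with 1 point per clone, a line at the mean of each genotype and axes that start at 0. In each of these 6 blocks both EP300-KO points lie below all other points, and in the second block both CREBBP-KO points also lie below both WT points.

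The short block, at 187748707 to 187754816 and 285 to 291 kb upstream of the gene start, had the lowest adjusted p of the tested blocks in EP300-KO against WT. It covered 1.73 and 1.86 kb in WT, 1.73 and 2.06 in CREBBP-KO, and 0.482 and 0.451 kb in EP300-KO. The EP300-KO values are under the 1000 bases that a block needed. Like both of its regions, the block thus entered the test only through WT and CREBBP-KO clones, which makes a lower EP300-KO value likelier. It fell in EP300-KO against WT by 1.55 on the log2 scale (limma, SE 0.14, adjusted p = 0.0082), and the adjusted p stayed at or under 0.0325 without any 1 clone. Of its 2 regions, 187748707 to 187749754 covered 708 and 828 bases in WT, 721 and 1031 in CREBBP-KO, and 0 in both EP300-KO clones (log2 difference -2.91, limma adjusted p = 0.0074, at most 0.0312 without any 1 clone). In the upper 50% of each list by score this region's difference was -1.37 and did not pass (limma, adjusted p = 0.64). Its best peak scored above 52.0% and 47.1% of the peaks of WT clones 1 and 2. The other, 187753738 to 187754816, covered 1017 and 1030 bases in WT, 1009 and 1024 in CREBBP-KO, and 482 and 451 in EP300-KO. Its difference was -0.79 (limma, adjusted p = 0.031), and the call ended without any 1 of the WT and EP300-KO clones (adjusted p up to 0.098).

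In the second block, at 187802196 to 187841552, every knock-out clone of either genotype was below both WT clones. It covered 14.6 and 13.1 kb in WT, 8.53 and 9.32 in CREBBP-KO, and 6.89 and 6.90 kb in EP300-KO. Each EP300-KO clone was also below each CREBBP-KO clone. The CREBBP-KO mean was 64.4% of WT and the EP300-KO mean 49.8%. The EP300-KO difference passed the test (log2 -0.81, SE 0.085, limma adjusted p = 0.012), except without EP300-KO clone 1 (adjusted p = 0.057). The CREBBP-KO difference did not (log2 -0.55, adjusted p = 0.11), nor did that between the knock-outs (0.25, adjusted p = 0.12).

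Inside the second block, 3 regions fell in EP300-KO. At 187806632 to 187808064 the WT clones covered 1413 and 1214 bases, the CREBBP-KO clones 820 and 781, against 329 and 391 in EP300-KO. At 187808965 to 187811186 the values were 2220 and 2202 in WT, 555 and 682 in CREBBP-KO, and 0 and 182 in EP300-KO. At 187815069 to 187816265 they were 1197 and 731 in WT, 0 and 173 in CREBBP-KO, and 0 in both EP300-KO clones. In all 3 the lowest WT clone was above every knock-out clone. These regions were chosen by their EP300-KO calls and had fewer than 500 bases in both EP300-KO clones. The EP300-KO part of this order was thus favoured by the choice. Over all regions of the genome, both EP300-KO clones were below both WT clones in 33.9%.

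The log2 differences of EP300-KO from WT were -1.42, -3.58 and -3.17 (limma, adjusted p = 0.013, 0.018 and 0.048). For CREBBP-KO against WT they were -0.61, -1.65 and -2.61 and did not pass (limma, adjusted p = 0.38, 0.41 and 0.35). The first EP300-KO call ended without WT clone 1 (adjusted p = 0.051), the next without any WT or CREBBP-KO clone (up to 0.064), and the last without either EP300-KO clone (up to 0.24). The last region met the minimum width through the WT clones alone, so its call rests on a filter that its own difference decides, and without a WT clone it was no longer tested. In the upper 50% of each list by score the first call ended (limma, adjusted p = 0.21).

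A further region of the second block had the same order of values without passing. At 187828829 to 187830159 the WT clones covered 1321 and 1249 bases, the CREBBP-KO clones 0 and 533, against 0 and 235 in EP300-KO (EP300-KO adjusted p = 0.16, limma). The widest regions of this block changed less. At 187802196 to 187806520 the WT clones covered 4325 and 4250 bases, the CREBBP-KO clones 4066 and 4113, against 3877 and 3343 in EP300-KO. Its log2 difference between EP300-KO and WT was -0.04 (limma, adjusted p = 0.82). The region 187826057 to 187828708 covered 2652 and 2553 bases in WT, 2338 and 2479 in CREBBP-KO, and 2015 and 2128 in EP300-KO. There the EP300-KO difference from WT was -0.11 (limma, adjusted p = 0.43).

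Farther upstream, a block drawn as the third, at 187923814 to 187936185 covered 4.93 and 4.21 kb in WT, 3.10 and 4.39 in CREBBP-KO, and 2.36 and 2.93 kb in EP300-KO. The last block, at 187951582 to 187966903, covered 14.3 and 14.7 kb in WT, 14.03 and 15.0 in CREBBP-KO, and 10.3 and 11.99 kb in EP300-KO. In both blocks each EP300-KO clone was below every other clone, and neither difference from WT passed the test (limma, adjusted p = 0.063 and 0.38). The wide region of the last block, 187951582 to 187966105, covered 13841 and 14440 bases in WT, 13751 and 14524 in CREBBP-KO, and 10331 and 11985 in EP300-KO. Its log2 difference between EP300-KO and WT was -0.14 (limma, adjusted p = 0.48). Nearer the gene, 71 to 83 kb upstream, a faint block at 187535098 to 187547318 covered 1.80 and 0.939 kb in WT, 0.756 and 1.05 in CREBBP-KO, and 0.396 and 0.441 kb in EP300-KO (log2 -1.25, limma adjusted p = 0.051). A small block at 187871394 to 187872403, neither drawn nor tested, was not lowest in EP300-KO. It covered 0.311 and 0.274 kb in WT, 0.113 and 0.294 in CREBBP-KO, and 0.296 and 0.508 kb in EP300-KO.

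Counted over blocks, 2 of the 7 tested in the interval fell in EP300-KO against WT, where 7.32% of all tested domains did, and 0 rose (background 1.45%). Of these, the short block entered the test only through WT and CREBBP-KO clones. In CREBBP-KO against WT 0 fell and 0 rose (background 0% for both). In fixed windows of 100 kb, 2 of 6 fell in EP300-KO (background 7.14%) and 0 rose (background 1.83%). They were 187.7 to 187.8 Mb, with 15.3 and 13.0 kb in WT, 14.9 and 17.0 in CREBBP-KO and 5.38 and 6.27 kb in EP300-KO, and 187.8 to 187.9 Mb, with 15.9 and 13.99 kb, 8.75 and 9.85 kb, and 7.19 and 7.56 kb. The log2 differences of EP300-KO from WT were -1.06 (SE 0.11) and -0.80 (SE 0.088), with limma adjusted p of 0.0079 and 0.010. The call in the latter window and that of the second block were the ones lost without EP300-KO clone 1, which left 1 window (limma adjusted p = 0.060) and 1 block.

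Scored by presence alone, 12 of the 56 regions (21.4%) had a peak in both WT clones and in neither EP300-KO clone, against 9.15% of all regions, and 0 had the reverse pattern (background 1.74%). Without WT clone 2 the former count was 23, under a looser rule that asks for a WT peak in clone 1 only. The share over all regions was not computed for that rule, so 9.15% is not its background. For CREBBP-KO, 0 regions were lost from both clones (background 3.05%) and 1 was gained (background 1.25%). Without a single WT or CREBBP-KO clone these became 0 to 5 lost, with 5 without WT clone 2 or CREBBP-KO clone 2, and 1 to 6 gained, with 6 without CREBBP-KO clone 1 and 3 without WT clone 1. The backgrounds given do not apply to these looser counts. In 8 regions (14.3%, against 3.85% of all regions) all WT and CREBBP-KO clones and no EP300-KO clone had a peak.

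Counting regions in which the clones of 2 genotypes did not overlap in covered bases, both EP300-KO clones were below both WT clones in 35 of 56 (background 33.9%) and above both in 0 (background 7.72%). The CREBBP-KO clones were below both WT clones in 10 (background 15.0%) and above in 10 (background 10.4%), so neither direction prevailed.

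The knock-outs were also compared directly, which tests whether their effects differ. Of the 32 tested regions, 13 were wider in CREBBP-KO than in EP300-KO past the threshold and 0 were narrower, where 7.21% and 1.9% of all tested regions were (limma, adjusted p at most 0.05). The median log2 difference was 0.64, beside -0.04 over all tested regions. Of the 13, 9 had fewer than 500 bases in both EP300-KO clones and entered only through the other clones. Without CREBBP-KO clone 1 the count was 1, without CREBBP-KO clone 2 it was 3, and without EP300-KO clone 1 it was 8. This comparison shares the EP300-KO clones with that of EP300-KO and WT, so the counts are not independent.

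The short block was wider in CREBBP-KO than in EP300-KO by 1.70 on the log2 scale (limma, SE 0.14, adjusted p = 0.0072; 0.051 and 0.053 without CREBBP-KO clone 1 or 2). It was the 1 block of 7 to pass (background 9.82%), and 0 were narrower (background 2.35%). In this comparison too, the short block entered the test only through WT and CREBBP-KO clones. The window 187.7 to 187.8 Mb was the 1 of 6 to pass, at 1.33 (adjusted p = 0.0050, background 10.7%), and 0 were narrower (background 3.25%). In presence, 11 regions had a peak in CREBBP-KO clones 1 and 2 and in no EP300-KO clone (background 6.5%), and 0 had the reverse pattern (background 2.79%). The former count was 22 without CREBBP-KO clone 1, a looser rule for which no background was computed. Both CREBBP-KO clones were wider than both EP300-KO clones in 31 of 56 regions (background 27.8%) and narrower in 1 (background 10.5%).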

How the data were processed

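H3K27ac ChIP-seq was deposited as 1 peak list for each of the 6 immunoprecipitated libraries. Chromatin fixed with 1% formaldehyde was sheared to 200 to 500 bp and read in pairs of 150 bp, per the labels' protocols. Per the submitters' processing notes, CASAVA 1.8, Bowtie2 2.1.0, SAMtools 0.1.19 and hg19 were used. No source used here names the peak caller. Peaks were called per clone against that clone's input, per the file headers. The deposited score of a peak, whose meaning no source used here gives, served for ranks inside 1 list only. Deposited starts were taken to count from 0, an assumption that could shift a printed start by 1 base.

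Covered bases per merged region, per 100 kb window and per stitched domain were fitted over the whole genome with limma 3.58.1 (R 4.3.3), on log2(bases + 100) centred on each clone's median over features covered in all 6 clones. The spread was estimated over all 6 clones together, and features needed 500 bases (1000 for windows and domains) in at least 2 clones. Differences on this log2 scale understate changes of short regions. The fit was tested on simulated data made for EP300-KO against WT. For regions it recovered 2% of changes of 1 on the log2 scale and 36% of changes of 2. For windows it recovered 44% and 78%, and for domains 36% and 57%. The simulated spread was drawn at random over features and was smaller than the pooled spread within groups, so recovery in the real data may differ. Single totals were tested by exact permutation. Regions named are those called in a comparison, the 8 widest of the distal stretch, those at the gene start and a few others chosen after their values were seen. The interval, its zones and the measures were chosen with earlier results of these data known. Tables and figures were made with Python 3.11.15.

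Alternatives were no centring, quantile normalization, other pseudocounts and filters, fits on 4 clones, equal list lengths, the upper 50% of each list by score, joined peaks, shares of all covered bases and leaving out each clone. The deposited files carry no read counts, so depth per sample is unknown and no interval covers it. The labels do not say that clones were independent cultures beyond being separate clones, so p-values measure the spread between these clones.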

Additional observations from a re-analysis of the deposited data

Results flagged for a closer look

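The effects of the EP300 and CREBBP knock-outs differed, by the direct test between them, in 13 regions, 1 window and 1 block of the interval, all wider in CREBBP-KO (limma, adjusted p at most 0.05). On the gene side of the main block, the log2 differences were 0.51 at 187614059 to 187623053, 2.48 at 187626039 to 187626753, 2.92 at 187627504 to 187628457, 2.71 at 187628964 to 187629720, 1.20 at 187638588 to 187641501 and 0.91 at 187644078 to 187646113. On its far side they were 3.59 at 187703251 to 187705265, 3.01 at 187705493 to 187706364, 3.17 at 187711692 to 187713674 and 0.72 at 187713981 to 187719952. The regions of the short block differed by 3.10 (187748707 to 187749754) and 0.82 (187753738 to 187754816), and the block as a whole by 1.70. In the second block only 187806632 to 187808064 did, by 0.81. The window 187.7 to 187.8 Mb differed by 1.33. The first region and that in the second block lost their calls without any 1 of the 6 clones, with limma adjusted p up to 0.27 and 0.15. The region at 187748707 to 187749754 kept its call without each (at most 0.045) and lost it in the upper 50% of each list by score (log2 difference 1.63, adjusted p = 0.58). With 2 clones per genotype, single clones could not be judged as outliers.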

How the results depend on the processing

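The 13 regions lower in EP300-KO than in WT became 8 with quantile normalization, equal list lengths or joined peaks, 5 in a fit on the 4 clones compared, and 3 to 8 without 1 clone. The 13 wider in CREBBP-KO than in EP300-KO became 8 with quantile normalization, 7 in the upper 50% of each list by score or with joined peaks, and 1 to 12 without 1 clone. In the upper 50% of each list, 2 regions were lower in CREBBP-KO than in WT. The region at 187626039 turned to 0.19 (EP300-KO minus WT) at equal list length. Windows lower in EP300-KO numbered 1 in the upper 50% and 1 to 3 without 1 clone, and blocks 1 to 3. Without centring, 2 windows and 2 blocks were wider in CREBBP-KO than in EP300-KO, as were 2 blocks at a pseudocount of 1000 and 0 to 1 blocks without 1 clone.

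In ppm of all covered bases, the promoter and first intron differed by 7.73 (CREBBP-KO minus WT), 47.7 (EP300-KO minus WT) and -40.0 (CREBBP-KO minus EP300-KO), the near upstream stretch by 9.39 (EP300-KO minus WT) and -5.86 (CREBBP-KO minus EP300-KO), and for CREBBP-KO minus WT the distal stretch by 91.9 and the interval by 103, all against the sign in kb. The small CREBBP-KO differences from WT also changed sign without 1 clone, at -0.10 to 0.027 kb (promoter and first intron), -0.097 to 0.11 kb (near upstream), -5.98 to 3.10 kb (distal), -6.18 to 3.23 kb (interval) and -0.051 to 0.031 (log2 ratio, 0.0064 at equal list length). The EP300-KO distal difference was negative under each alternative run.

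In presence, EP300-KO losses were 19 when a region had to be covered over 50%, 7 in the upper 50% by score and 12 to 23 without 1 clone, and gains 0 to 1. CREBBP-KO losses were 4, 3 and 0 to 5 in the same order. CREBBP-KO gains were 0 when covered over 50%, with joined peaks or in the upper 50%, 3 at equal list length and 1 to 6 without 1 clone. Between the knock-outs, the 11 became 6 with joined peaks, 4 in the upper 50% and 11 to 22 without 1 clone, and the reverse pattern 0 to 1. Beyond fewer clones or peaks entering, the cause of these changes was not tested. Shares over all regions were not computed for these altered presence counts, so they have no background here. No paired analysis was possible because the labels give no replicate numbers, which here only name clones. Joined peaks gave values only for regions that joining left intact, of which 187815069 to 187816265 lost its EP300-KO call (limma adjusted p = 0.052), and shifted windows gave counts only.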
